A study of Mus musculus with 6 samples.

Results

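Islet cells release hormone by electrical activity. The 38 genes described here encode ion channels, calcium-store proteins and a gap-junction protein of the kinds that take part in it. The genes were listed by symbol, matched to the gene count table by Ensembl gene ID, and kept if they had at least 10 counts summed over the 6 libraries. All 38 met this among 56980 gene IDs, and 37 of them passed the filter on low counts and were among the 18558 genes tested. The counts came from RNA of whole pancreatic islets of 14-week-old knockout mice and control littermates, extracted with a column kit for small samples (RNeasy Micro). The 3 control libraries had the genotype SSBP3F/F, that is, both alleles of Ssbp3 floxed, with no Cre named. Ssbp3 codes for a transcriptional co-regulator that binds LDB1, the partner of LIM-homeodomain factors. The 3 knockout libraries came from animals of the genotype SSBP3F/F; MIP-CreER, in which the mouse insulin promoter drives a tamoxifen-inducible Cre recombinase in beta cells. The comparison addresses which islet genes change with loss of SSBP3. Animals with MIP-CreER and intact Ssbp3 were not analysed here, and effects of the transgene and of the deletion cannot be told apart. The sources used here do not give tamoxifen treatment, sex or pooling of animals. The p-values therefore reflect only how far these libraries spread, which may be partly technical.

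As background, a beta cell closes its ATP-sensitive potassium (KATP) channels when glucose metabolism raises ATP. The membrane then depolarizes, voltage-gated sodium and calcium channels open, and calcium entry triggers insulin exocytosis. Voltage-gated, calcium-gated and tandem-pore potassium channels repolarize or hold the membrane, and G-protein-gated potassium channels let inhibitory transmitters such as somatostatin and adrenaline hyperpolarize it. Calcium is stored in the endoplasmic reticulum by SERCA pumps and released through IP3 and ryanodine receptors, and gap junctions couple neighbouring beta cells.

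Library totals ranged from 14907641 to 225428920 counts, with control 1 and knockout 1 the shallowest of their groups. Levels are given as CPM, the counts per 1000000 counts of a library after scaling. A count of 3, used as the floor, equalled 0.0135 CPM in the deepest library and 0.194 CPM in the shallowest. It covers counting error only. Ssbp3 measured 65.8, 81.3 and 74.2 CPM in the control and 52.3, 58.1 and 57.1 CPM in the knockout libraries and missed the threshold (edgeR adjusted p = 0.0581, from 0.0271 to 0.283 over 18 alternatives). These counts include all islet cells and the whole gene. Every gene of the cell-type marker lists was detected. The summed level of 10 beta-cell markers was 188900 to 243900 CPM in control and 141800 to 159500 CPM in knockout libraries, with 3 of the 10 called lower. The sums of 4 delta-cell markers (3327 to 5290 against 2123 to 2582 CPM, 2 called lower), 6 duct markers (1720 to 2232 against 976 to 1432 CPM, 1 called higher) and 7 endothelial markers (235 to 266.5 against 267.0 to 328 CPM, 1 called higher) did not overlap between the groups either. The sums for alpha, PP, acinar, stromal, immune and Schwann cells overlapped. In bulk RNA, fewer cells of a type and less RNA per cell cannot be told apart, and the part of cell composition in the differences below was not tested.

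In knockout islets 3 of the 37 genes tested rose and 1 fell. The inward rectifier gene Kcnj5 went from at or near 0 to a mean of 9.41 CPM, the calcium channel subunit gene Cacnb3 and the IP3 receptor gene Itpr3 rose moderately, and the tweety-family gene Ttyh1 fell. A gene is called here when its Benjamini-Hochberg adjusted p over all genes tested is under 0.05 in edgeR's quasi-likelihood test. Calls were made for 10.8% of the 37 genes and for 7.07% of all genes tested, where 3.72% were called higher and 3.35% lower (691 and 621 genes, or 613 and 829 with upper-quartile scaling). The other 33 genes were not called. An unadjusted p under 0.05 was found for 9 of the 37 genes and for 4014 of all 18558 genes tested. Leaving out 1 library turned the sign or moved the log2 fold change by over 1.5 times in 31 of these 33, all but Kcnj3 and Kcnmb2. Values near 0, such as 0.024 for Abcc8, meet this rule after small shifts. The share over all genes tested was not determined. The libraries of the 2 groups did not overlap for 11 of the 37 genes, a share of 29.7% that lies near the 28.0% of all genes tested. The median log2 fold change, knockout over control, was 0.11 over the 37 genes and -0.0016 over all genes tested. The 4 calls lie in single genes of 4 different groups.

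**Figure D1:**
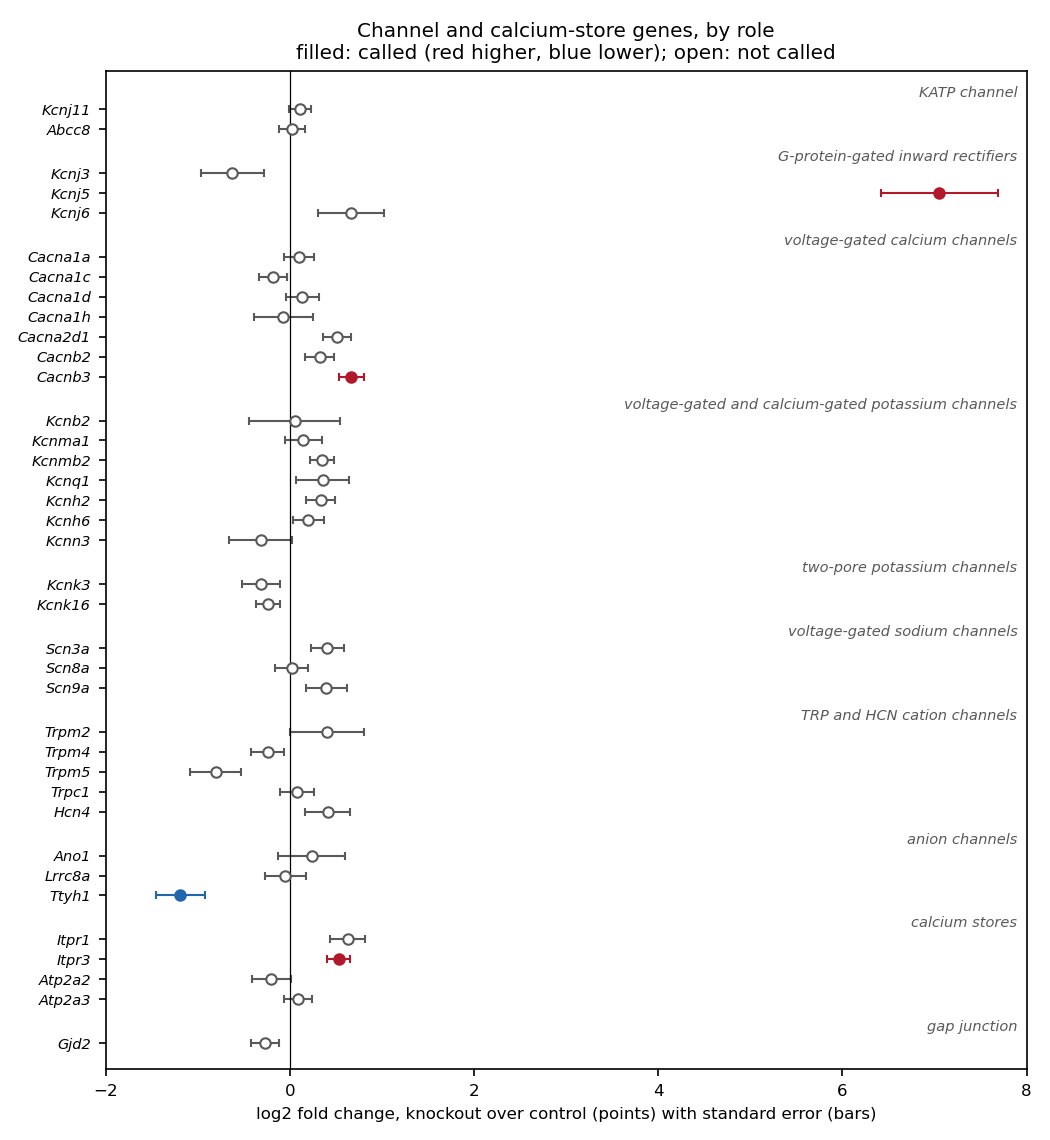
Log2 fold change of each of the 37 genes tested, knockout over control (horizontal axis, log2 scale), grouped by role. The bar is the SE, derived from the F statistic of the test. Filled points are the 4 called genes, and Kcnj5 at 7.05 lies far to the right of the other 36, which range from -1.19 to 0.67.

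The promoters of the 4 called genes are shown because these genes carry the measured changes. Each sequence is the 250 bases upstream of a transcription start in RefSeq on GRCm38.p6, read 5′ to 3′ on the strand of the gene. The counts were made on another build, GRCm39, and no position was carried between the builds. The windows are chr9:32344345-32344594 on the minus strand for Kcnj5, and on the plus strand chr15:98632078-98632327 for Cacnb3, chr17:27057054-27057303 for Itpr3 and chr7:4119280-4119529 for Ttyh1. Capitals mark E-boxes, CANNTG, which reads the same on both strands.
Kcnj5: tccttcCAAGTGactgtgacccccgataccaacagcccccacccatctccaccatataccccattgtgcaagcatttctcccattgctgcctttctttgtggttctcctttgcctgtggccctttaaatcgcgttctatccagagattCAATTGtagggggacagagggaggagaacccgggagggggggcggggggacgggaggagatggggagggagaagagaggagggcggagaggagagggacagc
Cacnb3: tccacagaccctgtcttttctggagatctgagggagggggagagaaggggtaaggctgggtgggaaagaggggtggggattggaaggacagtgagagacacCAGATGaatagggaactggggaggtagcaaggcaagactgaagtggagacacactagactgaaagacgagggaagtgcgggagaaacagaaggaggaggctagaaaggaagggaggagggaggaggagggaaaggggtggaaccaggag
Itpr3: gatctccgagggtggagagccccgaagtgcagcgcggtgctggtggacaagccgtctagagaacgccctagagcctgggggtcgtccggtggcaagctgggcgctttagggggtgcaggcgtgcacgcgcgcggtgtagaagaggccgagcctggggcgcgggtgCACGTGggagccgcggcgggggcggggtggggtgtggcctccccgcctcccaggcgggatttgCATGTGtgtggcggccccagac
Ttyh1: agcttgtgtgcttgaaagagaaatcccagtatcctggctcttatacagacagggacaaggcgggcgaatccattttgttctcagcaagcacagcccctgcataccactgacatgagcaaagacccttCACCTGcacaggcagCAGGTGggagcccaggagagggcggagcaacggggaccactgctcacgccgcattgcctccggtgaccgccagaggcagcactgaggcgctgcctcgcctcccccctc

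Cacnb3 has another RefSeq window, not printed, with 0 E-boxes. The windows shown held 2 E-boxes for Kcnj5, 1 for Cacnb3, 2 for Itpr3 and 2 for Ttyh1, and 66.2% of all 32851 promoter windows of the same length hold at least 1. The core letters of homeodomain sites, TAAT, and those of STAT sites, TTCNNNGAA, were searched on both strands as well. Neither was found in these 4 windows, while 54.9% and 7.02% of all windows hold them. With neither present, no motifs overlapped, and a match or its absence in 250 bases describes the letters only. GC content was 58.0%, 56.0%, 72.0% and 60.4% in the windows of Kcnj5, Cacnb3, Itpr3 and Ttyh1, against a median of 52.4% over all windows.

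Kcnj5 showed the largest difference among the 37 genes. It encodes GIRK4 (Kir3.4), a subunit of G-protein-gated inwardly rectifying potassium channels best known from the heart atrium and the adrenal cortex. Kcnj5 (ENSMUSG00000032034) had 0 counts in control 1, 0 in control 2 and 26 in control 3, which had 225428920 counts in all. The knockout libraries held 160, 780 and 860 counts. In CPM these are 0, 0 and 0.117 in control and 10.3, 9.73 and 8.15 in knockout libraries. The groups were far apart: the lowest knockout value was 69.6 times the highest control value, and the 3 knockout libraries lay close together (9.41 ± 1.13 CPM, SD, n = 3). The fitted log2 fold change was 7.05 (edgeR adjusted p = 0.00021, SE 0.631). DESeq2 gave 7.62 with a larger SE of 1.39. Its size depends on the counts of a single control library, since it was 12.13 without control 3, with 0 counts in the remaining controls. The call was kept in all 18 alternatives. Adjusted p ran from 9.17e-60, given by edgeR without a filter, to 0.0217 without both shallow libraries. The next lowest was 7.34e-07, without control 3.

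The other G-protein-gated subunits did not pass the test. Kcnj3, which encodes GIRK1, measured 2.82, 2.39 and 2.03 CPM in control and 1.29, 1.45 and 1.86 CPM in knockout libraries. All 3 knockout values lay below the controls, with a log2 fold change of -0.62 with an SE of 0.344 (edgeR adjusted p = 0.324) and as few as 20 counts in knockout 1. Kcnj6, which encodes GIRK2, measured 1.19, 2.23 and 2.97 CPM in control and 2.78, 3.03 and 4.50 CPM in knockout libraries, and its groups overlapped (log2 fold change 0.67, edgeR adjusted p = 0.318). Per length of the longest transcript, Kcnj5 made up 0, 0 and 2.03% of the summed level of Kcnj3, Kcnj5, Kcnj6 and Kcnj9 in control libraries, and 67.8, 65.0 and 51.5% in knockout libraries. The share of Kcnj3 was 62.3, 41.2 and 31.5% in control and 7.62, 8.68 and 10.5% in knockout libraries. Kcnj6 held 37.7, 55.3 and 66.3% in control and 23.5, 26.1 and 36.8% in knockout libraries. Kcnj9, which encodes GIRK3 and is not among the 38 genes, stayed at or under 0.152 CPM in every library. In these counts, then, Kcnj5 went from the least to the most abundant of Kcnj3, Kcnj5 and Kcnj6.

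**Figure D2:**
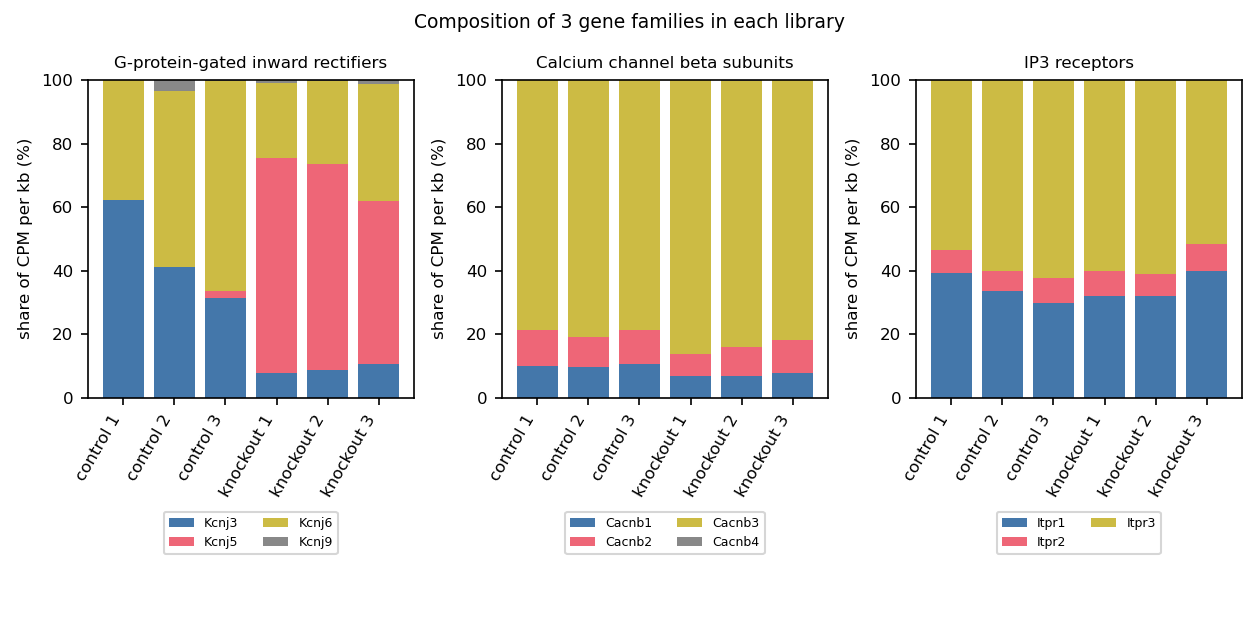
Stacked bars give the share (%) of each gene in the summed CPM per kb of its family, for each of the 6 libraries. In the left panel Kcnj5 takes 51.5% to 67.8% of the G-protein-gated family in knockout libraries and at most 2.03% in control libraries, while Cacnb3 and Itpr3 hold the largest share of their families in all 6 libraries.

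Neither of the 2 KATP channel genes was called by edgeR or DESeq2, and 0 had an unadjusted p under 0.05. Kcnj11, which encodes the pore Kir6.2, measured 88.9, 91.1 and 103.8 CPM in control and 99.9, 93.3 and 113.5 CPM in knockout libraries, a log2 fold change of 0.11 with an SE of 0.118 (edgeR adjusted p = 0.646). Abcc8, which encodes the sulfonylurea receptor SUR1, measured 525.9, 626.0 and 627.5 CPM against 582.5, 544.3 and 683.0 CPM, a log2 fold change of 0.024 with an SE of 0.138 (edgeR adjusted p = 0.944). For both genes the groups overlapped, and the sign for Abcc8 turned in 5 of 18 alternatives. Per length, Kcnj11 held 19.9% ± 1.27 of the summed level of the KATP genes in control libraries and 20.8% ± 0.297 in those of the knockout (SD, n = 3).

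Among voltage-gated calcium channel genes, an auxiliary beta subunit rose while the pore-forming subunits did not pass the test. Cacnb3 (ENSMUSG00000003352), which encodes a cytoplasmic subunit that sets the trafficking and gating of the pore, measured 55.3, 68.1 and 62.2 CPM in control and 116.6, 88.0 and 91.6 CPM in knockout libraries. Every knockout library lay above every control library, with knockout 1 highest. The log2 fold change was 0.67 (edgeR adjusted p = 0.0114, SE 0.134). The call was lost without control 1 (adjusted p = 0.0598), without knockout 1 (0.0576) and without both of these shallow libraries (0.166, with a log2 fold change of 0.46). Adjusted p ran from 3.99e-05, given without a filter, to 0.166 over 18 alternatives. Cacnb3 was the main beta subunit in all libraries, with 79.3% ± 1.31 of the level per length of Cacnb1 to Cacnb4 in control libraries and 84.0% ± 2.27 in those of the knockout (SD, n = 3).

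Cacna2d1, which encodes the extracellular alpha-2-delta subunit, measured 59.7, 49.3 and 54.3 CPM in control and 71.9, 63.9 and 97.2 CPM in knockout libraries, with no overlap. It missed the threshold (log2 fold change 0.52, edgeR adjusted p = 0.0622, SE 0.153) and was called in 5 of 18 alternatives, among them without knockout 2 (0.0305). Without knockout 3 its log2 fold change was 0.32 (adjusted p = 0.182). Cacnb2, another beta subunit, measured 14.7, 14.91 and 15.4 CPM against 16.8, 17.6 and 21.8 CPM, also without overlap (log2 fold change 0.32, edgeR adjusted p = 0.243). The pore genes all overlapped between the groups. Cacna1d, which encodes the L-type channel Cav1.3, had a log2 fold change of 0.13 (SE 0.178), and Cacna1c, which encodes Cav1.2, described as the main L-type channel of mouse beta cells, one of -0.19 (SE 0.152). Those of Cacna1a (P/Q-type) and Cacna1h (T-type) were 0.097 (SE 0.162) and -0.071 (SE 0.319), and the edgeR adjusted p of these 4 pore genes ran from 0.532 for Cacna1c to 0.929 for Cacna1h. In these counts Cacna1d was the more abundant of Cacna1c and Cacna1d per length. Its share was 61.3 to 66.2% in control and 65.7 to 70.1% in knockout libraries.

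**Figure D3:**
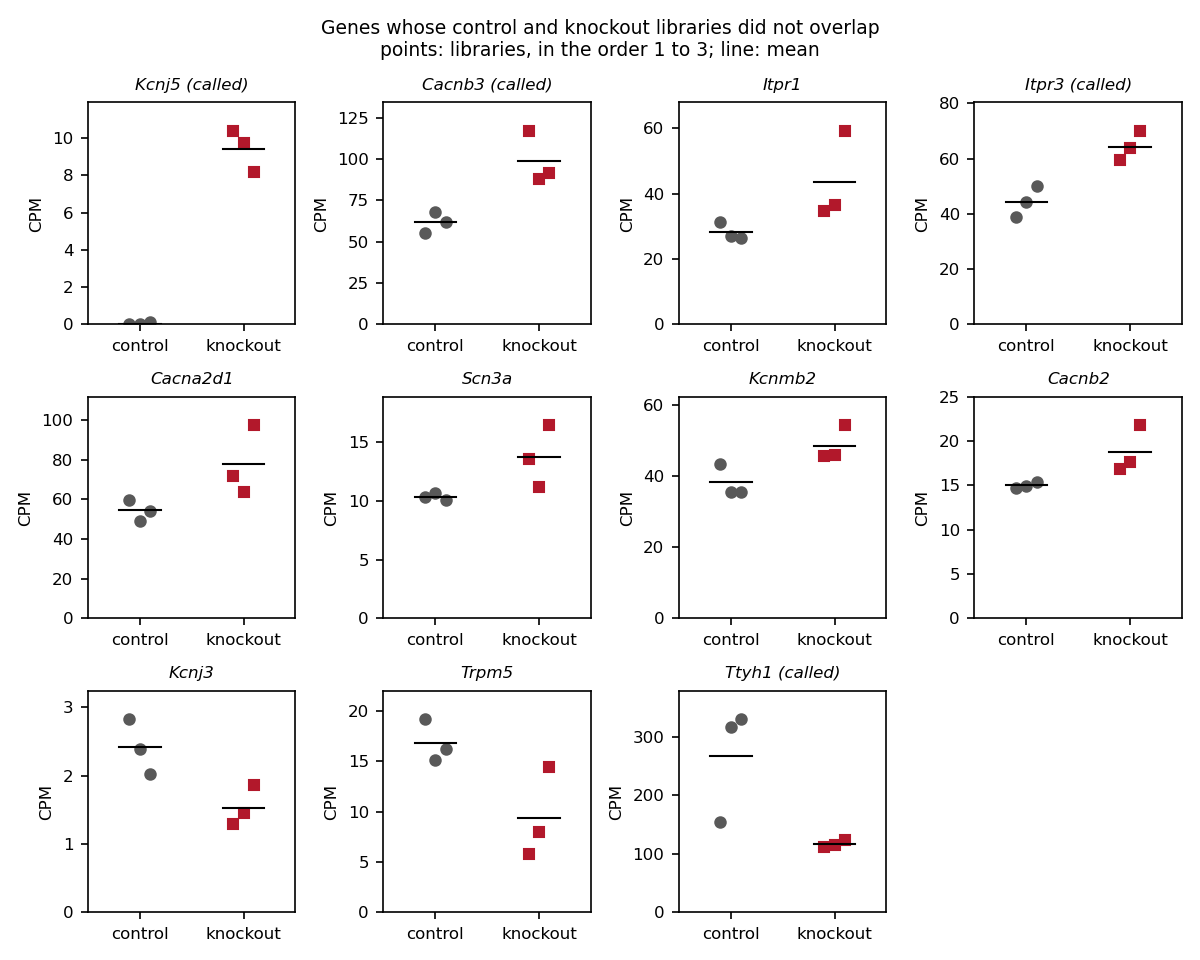
CPM in each library (vertical axes, linear from 0) for the 11 genes whose control (circles) and knockout (squares) libraries did not overlap, with the group mean as a line. Kcnj5 separates from near 0, Ttyh1 is high in control 2 and 3 and closer to the knockout level in control 1, and knockout 3 is the highest library for Itpr1, Itpr3, Cacna2d1, Scn3a, Kcnmb2 and Cacnb2.

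Of the 7 voltage-gated or calcium-gated potassium channel genes, edgeR and DESeq2 each called 0, and 1 had an unadjusted p under 0.05. Kcnmb2, an accessory subunit of the BK channel, measured 43.4, 35.7 and 35.6 CPM in control and 45.7, 45.9 and 54.3 CPM in knockout libraries. The groups did not overlap, although control 1 lay close to knockout 1 and 2 (log2 fold change 0.35, edgeR adjusted p = 0.130, SE 0.130), and the gene was called only with length and GC offsets (0.0302). The BK pore gene Kcnma1 had a log2 fold change of 0.15 and the delayed rectifier gene Kcnb2 one of 0.054, the latter with an SE of 0.494 and 12 counts in knockout 1. The ERG genes Kcnh2 and Kcnh6 had log2 fold changes of 0.34 (edgeR adjusted p = 0.234) and 0.20 (0.549). Kcnq1, a slow delayed rectifier, had 0.36 and the small-conductance calcium-gated channel gene Kcnn3 -0.32 (edgeR adjusted p 0.519 and 0.668). Both values moved when 1 library was left out: Kcnn3 was at -0.82 without knockout 3 (adjusted p = 0.056) and at -0.054 without knockout 1, and Kcnq1 was at 0.13 without knockout 2. Kcnq1 shares its locus with the antisense RNA Kcnq1ot1, which fell from 9.95 ± 4.16 to 3.38 ± 1.28 CPM (SD, n = 3; edgeR adjusted p = 0.0272). The strand setting is not known from the sources used here, so reads of the overlapping genes cannot be told apart.

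The 2 genes of tandem-pore channels, which carry background potassium current, were not called by edgeR or DESeq2, and 0 had an unadjusted p under 0.05. Kcnk16, which encodes the islet channel TALK-1, measured 359.1, 398.6 and 288.8 CPM in control and 302.6, 292.0 and 293.5 CPM in knockout libraries (log2 fold change -0.24, edgeR adjusted p = 0.338, SE 0.134). Control 3 lay below all 3 knockout libraries, so the groups overlapped. Kcnk3, which encodes TASK-1, ranged from 17.97 to 31.6 CPM in control and from 16.0 to 20.1 CPM in knockout libraries (log2 fold change -0.31, edgeR adjusted p = 0.429). Control 2 was the high library for Kcnk3, and without it the log2 fold change was -0.0016.

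The 3 sodium channel genes, which encode channels that open on depolarization, had log2 fold changes above 0. Neither edgeR nor DESeq2 called any of them, and 1 had an unadjusted p under 0.05. Scn3a measured 10.3, 10.7 and 10.1 CPM in control and 13.6, 11.2 and 16.4 CPM in knockout libraries, a separation without overlap that missed the threshold (log2 fold change 0.41, edgeR adjusted p = 0.210). Scn9a encodes Nav1.7, described as the main sodium channel of mouse beta cells. It measured 14.1, 11.6 and 10.5 CPM against 13.6, 11.9 and 21.6 CPM (log2 fold change 0.40, edgeR adjusted p = 0.336). Per length, Scn9a held 32.5 to 42.9% of the summed level of these 3 genes in control and 35.6 to 44.1% in knockout libraries. Only knockout 3 lay above all control libraries for Scn9a, and without it the log2 fold change was 0.083. Scn8a had a log2 fold change of 0.020 (SE 0.179), whose sign turned with upper-quartile scaling (-0.027).

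Of the 5 cation channel genes of the TRP and HCN families, edgeR called 0 and DESeq2 1, and 1 had an unadjusted p under 0.05. Trpm5, a calcium-activated monovalent cation channel of beta cells, measured 19.1, 15.1 and 16.2 CPM in control and 5.75, 8.01 and 14.4 CPM in knockout libraries. All knockout values lay below the controls, but knockout 3 stood close to them, and the log2 fold change of -0.81 (SE 0.279) missed the threshold (edgeR adjusted p = 0.113). Trpm5 was called in 3 of 18 alternatives, among them without knockout 3 (log2 fold change -1.26, edgeR adjusted p = 0.00221). Tssc4, a gene on the opposite strand whose annotated span overlaps Trpm5, fell from 121 ± 6.60 to 59.6 ± 2.34 CPM (SD, n = 3; log2 fold change -1.02, edgeR adjusted p = 0.000181), and its part in the Trpm5 counts was not tested. Trpm4, the closest relative of Trpm5, had a log2 fold change of -0.24, Trpm2 0.41 with values from 1.75 to 5.80 CPM in control and 3.26 to 6.92 CPM in knockout libraries, and Trpc1 0.080. Hcn4, a channel opened by hyperpolarization, had 0.41 (edgeR adjusted p = 0.365), with overlapping groups in each of these 4 genes.

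Ttyh1 (ENSMUSG00000030428), a member of the tweety family that was described as chloride channels, was the only one of the 37 genes called lower. It measured 153.9, 315.9 and 329.2 CPM in control and 112.0, 115.4 and 124.1 CPM in knockout libraries. The knockout libraries lay close together below all controls, while control 1 lay nearer to them than to the other controls. The log2 fold change was -1.19 (edgeR adjusted p = 0.0358, SE 0.263). The call was lost on leaving out control 2 (adjusted p = 0.169), control 3 (0.0992), knockout 1 (0.111), knockout 2 (0.113) or knockout 3 (0.217), with the acinar share as a covariate (0.134) and with length and GC offsets (0.0579). It was kept without control 1 (0.00037) and without both shallow libraries (0.0178). Adjusted p ran from 7.47e-12, given without a filter, to 0.217 over 18 alternatives. The log2 fold change lay between -1.46 and -0.999 in all of them. Ano1, a calcium-activated chloride channel, ranged from 5.95 to 11.5 CPM in control and from 5.30 to 15.2 CPM in knockout libraries, and Lrrc8a, the essential subunit of the volume-regulated anion channel, from 8.36 to 9.54 and from 6.33 to 11.3 CPM. Neither was called (edgeR adjusted p 0.768 and 0.930).

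In the calcium-store group 1 release channel gene was called higher, and the pump genes were not called. Itpr3 (ENSMUSG00000042644), which encodes an IP3 receptor of the endoplasmic reticulum, measured 38.9, 44.2 and 50.2 CPM in control and 59.6, 63.7 and 69.9 CPM in knockout libraries. The groups did not overlap, and the log2 fold change was 0.53 (edgeR adjusted p = 0.0246, SE 0.126). This call was lost on leaving out any single library other than control 3, with adjusted p of 0.102 for control 1, 0.102 for control 2, 0.0546 for knockout 1, 0.0569 for knockout 2 and 0.053 for knockout 3. Omitting control 1 and knockout 1 together gave 0.166, and offsets for length and GC content gave 0.0858 at a log2 fold change of 0.34. Adjusted p ran from 0.0028, given without a filter, to 0.166 over 18 alternatives. Itpr1 measured 31.4, 27.1 and 26.4 CPM in control and 34.8, 36.6 and 59.0 CPM in knockout libraries, with knockout 3 well above the rest. Its log2 fold change of 0.63 (SE 0.188) missed the threshold (edgeR adjusted p = 0.0656), with a call in 4 of 18 alternatives, among them without knockout 2 (0.0431). Without knockout 3 the Itpr1 value was 0.34 (adjusted p = 0.189).

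Itpr2 is not among the 38 genes and was added to complete the family. It measured 6.66, 6.07 and 8.30 CPM in control and 9.76, 9.35 and 15.5 CPM in knockout libraries. The groups did not overlap for Itpr2, nor did they for Itpr1. The log2 fold change of Itpr2, 0.72, missed the threshold (edgeR adjusted p = 0.0815, SE 0.23). The share of Itpr3 in the level per length of the 3 receptors was 58.7% ± 4.52 in control libraries and 57.7% ± 5.32 in those of the knockout (SD, n = 3), and the library shares overlapped. The SERCA2 gene Atp2a2 measured 673.5, 526.6 and 787.4 CPM against 454.2, 494.7 and 780.5 CPM (log2 fold change -0.20, edgeR adjusted p = 0.647, SE 0.211), and the SERCA3 gene Atp2a3 had 0.088 (edgeR adjusted p = 0.791, SE 0.149). Ryr2, the ryanodine receptor known from heart muscle, had 0, 2 and 6 counts in control and 0, 8 and 10 counts in knockout libraries, too few for the test, and at most 0.0998 CPM. Gjd2, which encodes connexin 36, the gap-junction protein of beta cells, measured 106.7, 81.1 and 107.2 CPM in control and 76.9, 68.0 and 99.4 CPM in knockout libraries (log2 fold change -0.27, edgeR adjusted p = 0.348, SE 0.155). Gjd2 overlaps a noncoding gene on the opposite strand, A530058N18Rik, with 16.4 ± 2.39 CPM in control libraries and 11.3 ± 1.31 CPM in those of the knockout (SD, n = 3). A530058N18Rik was not called (edgeR adjusted p = 0.078).

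Levels of the 38 genes covered a wide range when compared per kilobase of the longest transcript. In control libraries Kcnk16 was highest at 164 ± 26.2 CPM per kb, followed by Abcc8 at 122 ± 11.9, Atp2a2 at 117 ± 23.0 and Atp2a3 at 86.0 ± 12.0 (SD, n = 3). Abcc8 and Atp2a2 differed by less than their spread. Ttyh1 at 61.2 ± 22.4, Gjd2 at 34.2 ± 5.17, Kcnj11 at 30.1 ± 2.55 and Cacnb3 at 22.6 ± 2.35 CPM per kb came next. Kcnj5 was last but one in control libraries at 0.0083 CPM per kb and stood at 2.01 ± 0.242 CPM per kb in knockout libraries, near Cacna1c at 1.69 ± 0.295 and Kcnma1 at 2.31 ± 0.595 (SD, n = 3).

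Knockout 3 stood apart from the other libraries for these genes. It was the highest of the 6 libraries for 20 of the 37 genes tested, or 54.1%, against 20.7% of all genes tested. The same library was highest for 49.9% of the 3661 tested genes whose longest transcript reaches the median of 4877 bases among the 37 genes. Of the 37 genes, 33 were longer than the median tested gene of 2970 bases. Those 3661 long genes had a median of 0.17 on the log2 scale, and the tested genes of at most 1723 bases had -0.19. Of the 3661 long genes, 7.13% were called higher and 1.61% lower, against 8.11% and 2.7% of the 37 genes. With offsets for length and GC content the median of the 37 genes moved from 0.11 to -0.038, and without knockout 3 it was -0.011. With the offsets Kcnj5 and Cacnb3 kept their calls, Itpr3 and Ttyh1 lost theirs, and Cacna2d1 and Kcnmb2 were called. The part of transcript length in the other differences was not tested beyond these offsets.

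**Figure D4:**
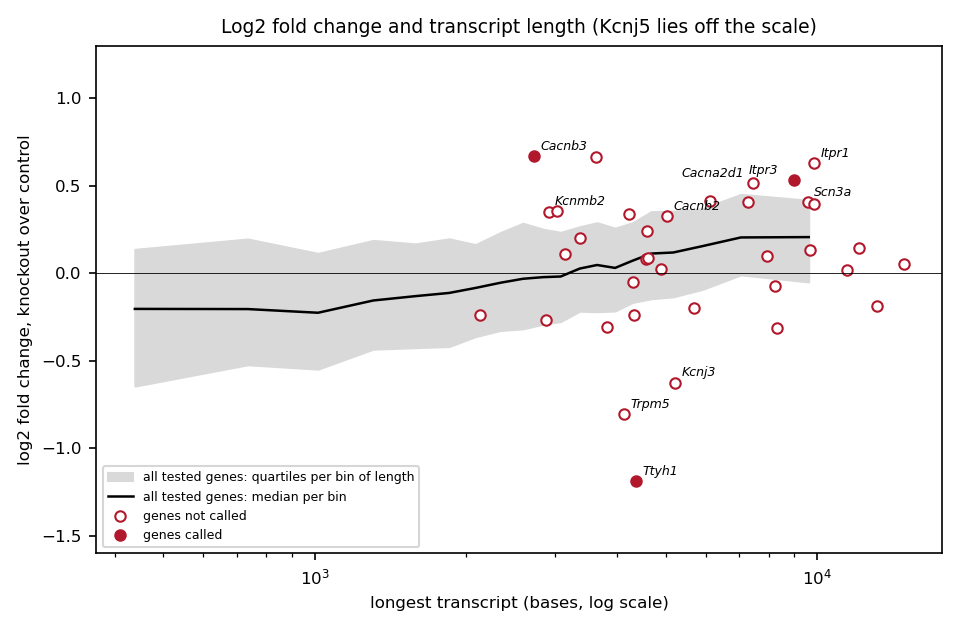
Log2 fold change, knockout over control, against the length of the longest transcript (bases, log axis). The black line and grey band are the median and quartiles of all tested genes in 20 bins of length, and circles are the 36 genes other than Kcnj5. The line rises with length. Of the called genes drawn, Cacnb3 and Itpr3 lie above the grey band and Ttyh1 below it. Genes that were not called lie outside it as well, among them Cacna2d1 and Kcnmb2 above and Trpm5 and Kcnj3 below.

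Of 219 other channel, calcium-handling and gap-junction genes listed by family, 169 were tested, and 11 were called higher and 4 lower, which is 8.88% against 7.07% of all genes. Calls were 2 higher and 1 lower of 55 potassium channel genes, 4 higher of 22 anion channel genes and 2 higher and 3 lower of 41 calcium-handling genes. Of 12 calcium channel and 10 sodium channel genes edgeR called 0 and 0, with 0 and 2 at an unadjusted p under 0.05. DESeq2 called 0 and 1 of them. The potassium channel genes Kcna2 (Kv1.2, log2 fold change 1.57, edgeR adjusted p = 0.00413) and Kcnj4 (Kir2.3, 1.55, 0.0204) rose. Cftr, the chloride channel of duct epithelia, rose from 0.223 ± 0.120 to 1.48 ± 0.463 CPM (SD, n = 3; edgeR adjusted p = 0.0169). The summed duct markers, by contrast, were lower in all 3 knockout libraries, and their part in the Cftr difference was not tested.

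Among the calcium-handling genes, Calr, the calcium-binding chaperone calreticulin of the endoplasmic reticulum, fell from 1341 ± 136 to 759 ± 18.2 CPM (SD, n = 3; edgeR adjusted p = 0.0037). On the log2 scale Smdt1, a subunit of the mitochondrial calcium uniporter, fell by 0.54 (edgeR adjusted p = 0.0239). Tmco1, described as a calcium leak channel of the endoplasmic reticulum, fell by 0.43 (edgeR adjusted p = 0.0313). Kcnip4, an accessory subunit of A-type potassium channels, fell by 1.2 (edgeR adjusted p = 0.0256). Kcna2 and Calr kept their calls whichever single library was left out, and both lost them without the 2 shallow libraries together (adjusted p 0.115 and 0.115). The calls of Cftr, Kcnj4, Kcnip4, Smdt1 and Tmco1 were each lost without at least 1 library. Cftr was not called without control 2 (adjusted p = 0.0786), knockout 1 (0.0569) or knockout 2 (0.0514). Kcnip4 kept its call without knockout 3 and lost it on leaving out any other library (0.0604 to 0.105). Kcnj4 lost its call without any 1 control or without knockout 1 (0.0509 to 0.0814). Smdt1 lost it without control 1, control 2, knockout 1 or knockout 3 (0.0541 to 0.137), and Tmco1 without control 1, control 2, knockout 1 or knockout 2 (0.0833 to 0.18). Without both shallow libraries none of these 5 genes was called (0.10 to 0.189).

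**Figure D5:**
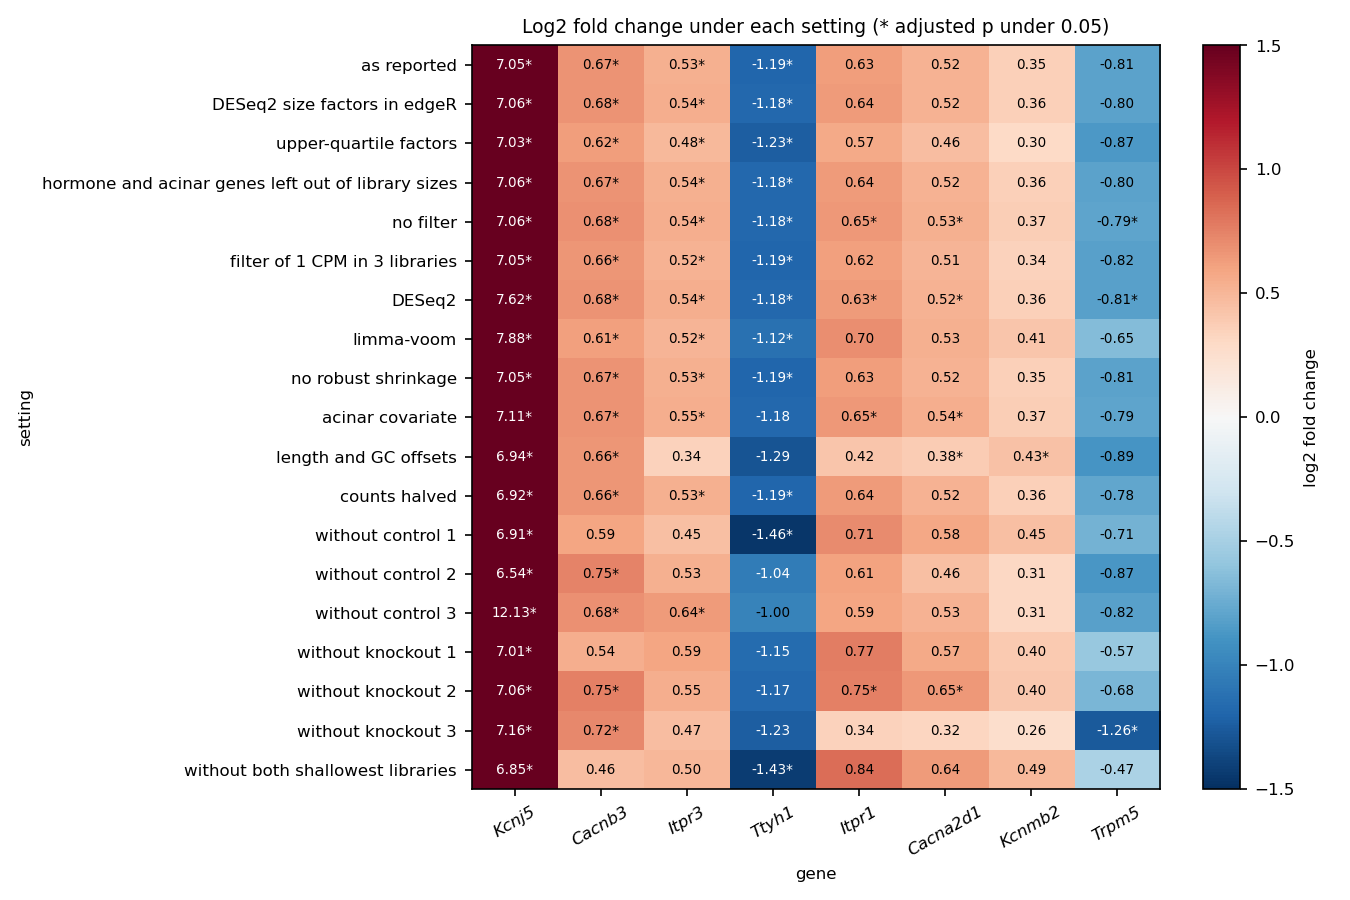
Log2 fold change (numbers and colour, which ends at -1.5 and 1.5) of 8 genes under the reported setting and 18 alternatives, with a star where the adjusted p is under 0.05. Kcnj5 carries a star in every line, Cacnb3 in all but 3 alternatives, and Itpr3 and Ttyh1 in 11 of 18.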

How the data were processed

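The submitters' processing notes name STAR 2.7.3a, Trim Galore 0.6.7, FastQC 0.11.9, featureCounts and the build GRCm39. The sources used here do not give the annotation release, strand setting or counting of read pairs. The authors deposited unnormalized whole-number counts per Ensembl gene ID. Column names give each library's group but not its sample, and libraries are numbered after the columns. Symbols matched 52073 IDs through GENCODE M21, and the longest transcript there gave length and GC content.

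In R 4.3.3 with edgeR 4.0.16, filterByExpr, TMM scaling and the robust quasi-likelihood test compared knockout with control over all 18558 genes that passed, with Benjamini-Hochberg adjustment and a threshold of 0.05, and the script was tested on simulated data. CPM (counts scaled to a common library size) use TMM-scaled totals, and fold changes are fitted values. The SE of an edgeR log2 fold change is its absolute value divided by the square root of the test's F statistic. It was not estimated separately. Alternatives included DESeq2 1.42.0, limma 3.58.1 (voom), scaling, filters, an acinar covariate, length and GC offsets (splines with 5 degrees of freedom), halved counts and left-out libraries. A block on the number in the column names was added after seeing the data. All 38 genes were named. Of the other channel genes, the called ones with the largest changes and at least 1 CPM were named, up to 6 in each direction, and some of these are not reported here. Members, gene lists, motifs and alternatives were chosen with earlier results of these data known.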

Additional observations from a re-analysis of the deposited data

How the results depend on the processing

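Of the 38 genes, 5 were called higher without a filter, with DESeq2 and with the acinar covariate, and 1 without both shallow libraries (1 to 4 on leaving out 1 library). Called lower were 2 without a filter and with DESeq2, 0 with the acinar covariate and with length and GC offsets, and 0 to 1 on leaving out 1 library. Over all genes, 1222 were called higher without a filter, 1107 with DESeq2, 1131 with the acinar covariate and 76 without both shallow libraries (295 to 719 on leaving out 1 library). Called lower were 987 with DESeq2, 989 with the acinar covariate, 48 without both shallow libraries and 224 to 590 on leaving out 1 library. The 4 called genes kept their direction in all 18 alternatives. Signs turned 34 times in 12 genes that were not called, and the cause was not tested. On the log2 scale, length and GC offsets gave -0.11 for Abcc8, -0.10 for Cacna1a, -0.071 for Cacna1d, -0.068 for Kcnb2, -0.038 for Kcnma1, -0.16 for Scn8a, -0.051 for Trpc1 and -0.028 for Atp2a3. Upper-quartile scaling gave -0.026 for Abcc8, -0.0008031 for Kcnb2 and -0.027 for Scn8a, and limma-voom -0.085 for Scn8a and -0.076 for Trpm2. Without both shallow libraries Abcc8 was at -0.029, Scn8a at -0.13 and Trpm2 at -0.18. Leaving out 1 library gave ranges of -0.075 to 0.098 for Abcc8, -0.054 to 0.18 for Cacna1a, -0.080 to 0.30 for Cacna1d, -0.31 to 0.24 for Cacna1h, -0.37 to 0.44 for Kcnb2, -0.057 to 0.34 for Kcnma1, -0.10 to 0.15 for Scn8a, -0.12 to 0.24 for Trpc1, -0.16 to 0.53 for Ano1, -0.26 to 0.14 for Lrrc8a and -0.050 to 0.22 for Atp2a3. The numbers in the column names recur in both groups, but the labels do not say that they pair libraries. Deviations from the group means correlated at 0.0162, 0.0806 and 0.0659 between columns of the same number, so pairing was not assumed, although each library correlated best with its own number. With edgeR, a replicate block on this number, chosen after seeing the data, gave 1118 genes called higher and 987 lower, and among the 38 genes 4 higher, with Cacna2d1 added, and 1 lower. Under the block Ssbp3 was called as well (adjusted p = 0.0202), and Kcnb2 turned to -0.085. Low counts limit precision for Kcnb2, Kcnj3, Kcnj5 in control libraries, Kcnj6 and Ryr2.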
